A study of Drosophila melanogaster with 4 samples.

Results

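The 1374 regions described here are the narrow H3K36me1 clusters of the left arm of chromosome 3 (3L) in heads of adult fruit flies (Drosophila melanogaster). They were chosen by position and width from the authors' list for the set of replicates, called the combined list here. A member lies on 3L, is under 20 kb wide and starts before 21.5 Mb in FlyBase release 5 coordinates. The combined list holds 7567 clusters, of which 7220 are under 20 kb. On 3L it holds 1540, and the rule leaves out 72 clusters of 20 kb or more and the 94 clusters that start at or past the position limit. The flies were Oregon-R of wild-type genotype, with the stage given as mixed adult and neither sex nor exact age stated. Chromatin came from formaldehyde-treated heads, and the sample titles name head nuclei. Heads hold brain, eye, fat body and muscle together, so a cluster cannot be traced to a cell type. There were 2 ChIP replicates and 2 inputs, and the labels do not say whether the ChIP replicates were separate fly collections.

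H3K36me1 is histone H3 with a single methyl group on the lysine that Set2, Ash1 and Mes-4 act on in flies. Set2 places the trimethylated form over transcribed gene bodies, and Ash1 and Mes-4 are known as enzymes for the dimethylated form. The monomethylated form has been mapped in fly cells to active chromatin, including introns and regulatory regions that also carry H3K4me1. A list of enriched clusters turns such a signal into intervals, so one broad zone can appear as a single wide cluster or as a row of narrow ones.

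Widths and positions chose the members, and both come from the same libraries as the replicate lists. The values below are therefore descriptions and carry no p-value. A design with 1 group of 2 ChIP replicates also allows no test between conditions. The lists hold no read counts, so their depth is unknown, and the mark is not shown to be absent where no cluster is listed. No gene is named, because the gene table used here follows Release 6 of the genome and the lists follow release 5.

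The narrow clusters of 3L together covered more of the arm than the wide ones did. They spanned 5.18 Mb, or 24.1% of the first 21.5 Mb, against 2.82 Mb (13.1%) for the 72 clusters of 20 kb or more. Their median width was 2139.5 bases, with quartiles of 1472 and 4468 bases, from 1001 to 19965 bases. Under the same rule replicate 1 listed 1004 clusters over 4.13 Mb and replicate 2 listed 1018 over 4.02 Mb, or 19.0% ± 0.359 (SD, n = 2) of the stretch. Clusters in the replicate lists were fewer and wider, with a median width of 2574 ± 118 bases (SD, n = 2), and none was under 1302 bases in replicate 1 or under 1304 bases in replicate 2.

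Most of the narrow clusters of a replicate lay in members. Of the 1004 in replicate 1, 900 touched members only, 99 lay in wide combined clusters, 1 touched both kinds and 4 touched neither. Of the 1018 in replicate 2, 902 touched members and 116 lay in wide combined clusters. None of the 49 clusters of 20 kb or more in replicate 1, and none of the 51 in replicate 2, touched a member.

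At the width limit the clusters formed a continuous series. The widest member, 3L:12083897-12103861, measured 19965 bases and scored 0.434. It was followed by 3L:6424488-6444330 with 19843 bases and a score of 0.754, and by 3L:8820977-8840788 with 19812 bases and a score of 1.23. Just outside lay 3L:14798589-14818867 (20279 bases, score 1.03), 3L:6325056-6345493 (20438 bases, score 1.09) and 3L:1576973-1597426 (20454 bases, score 1.38). At the position limit, the last member started at 21492750 and the next cluster of the arm at 21501209.

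The score is the authors' own value for each cluster, a positive number with no definition in the labels or headers. Among members it had a median of 0.424, with quartiles of 0.364 and 0.530, from 0.123 to 1.54. Width and score rose together, with a Spearman correlation across the 1374 members of 0.684, against 0.786 in replicate 1 and 0.797 in replicate 2. The rise did not hold at the narrow end. Among the 256 members narrower than 1301 bases, the least width in either complete replicate list, the correlation was -0.41. Their median score of 0.391 lay above the 0.351 of the 370 members from 1301 bases to under 2 kb. From 2 kb upward the class medians climbed in order, from 0.425 at 2 to 3 kb through 0.497 and 0.604 to 0.817 at 10 to 20 kb. Clusters share libraries and a caller and are not independent.

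**Figure D1:**
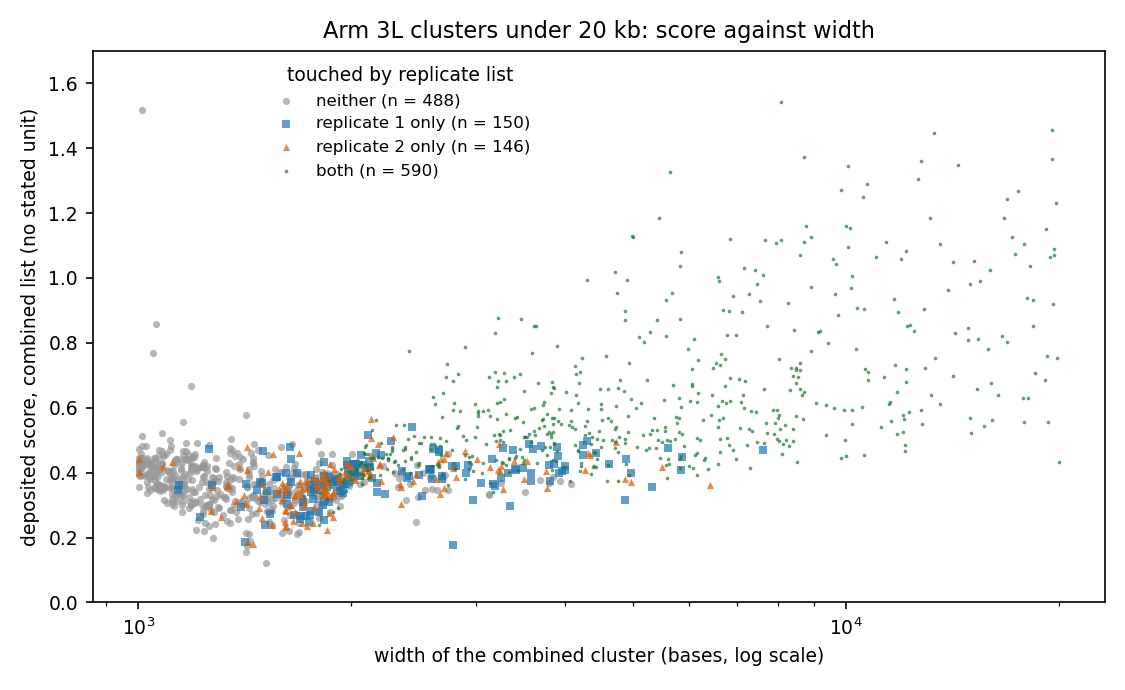
Deposited score of the combined list (vertical, no stated unit) against width in bases (horizontal, log scale) for the 1374 members, with marker and colour showing which replicate lists touch each. Clusters of 5 kb and more are nearly all in both lists, while a single point of 1013 bases stands at a score of 1.52 in neither.

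The 5 highest scores among the members fell on clusters of very different width. The highest, 1.54, belonged to 3L:311613-319693 near the telomere, 8081 bases wide. Replicate 1 gave it 1.60 over 8098 bases and replicate 2 gave it 1.52 over 7787 bases. Of the others, 3 were also single clusters of nearly full width in each replicate. The cluster 3L:5158133-5177632 (19500 bases) scored 1.46 in the combined list, 1.50 in replicate 1 and 1.45 in replicate 2. The cluster 3L:10850952-10864237 (13286 bases) scored 1.45, 1.47 and 1.45 in that order. The cluster 3L:9838644-9847374 (8731 bases) scored 1.37, 1.41 and 1.40.

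The remaining one of these 5 stood apart from all other members of its width. The cluster 3L:15416986-15417998 was 1013 bases wide and scored 1.52 in the combined list, and neither replicate list held any of it. Its nearest combined cluster lay 78305 bases away. The next highest score among members narrower than 1301 bases was 0.858, at 3L:9526640-9527697, and it too was in neither replicate list. Of the 59 members that scored above 1, all but this one (58) were in both replicate lists. Over all members that share was 42.9%, and over all combined clusters under 20 kb in the genome it was 40.9%.

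Neighbouring members lay close together, with a long tail of wide gaps. Over the 1316 pairs of neighbours with no wider cluster between them, the median gap was 2398 bases, with quartiles of 730 and 9032 bases. There were 65 gaps under 100 bases, including gaps of 0 bases where clusters abutted, and 60 gaps over 50 kb. Gaps of at most 2 kb made up 592 of the 1316 (45.0%). In the replicate lists, which hold fewer clusters, the median gap was 3408.5 ± 70.0 bases (SD, n = 2), and 38.7% ± 0.875 (SD, n = 2) of gaps were at most 2 kb.

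The longest gaps between neighbouring members were 3L:18395017-18615586 (220.6 kb), 3L:13669574-13868912 (199.3 kb) and 3L:5348520-5541805 (193.3 kb). Neither replicate list had a cluster in any of the 3, which says little, because only 4 narrow clusters of replicate 1 and none of replicate 2 lay outside combined clusters on the arm.

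Close neighbours formed runs, defined here as 3 or more members with gaps of at most 2 kb and no wider cluster between them. There were 132 runs with 557 members, or 40.5% of the members. A further 334 members (24.3%) stood in pairs and 483 (35.2%) stood alone. Runs of 3 were the most frequent, with 59, followed by 31 runs of 4, and 42 runs had 5 or more members. Members filled most of a run, with a median of 87.6% of its bases, and the median run spanned 17.0 kb. The limit of 2 kb on gaps favours high cover by definition, in runs of any span.

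Of the 132 runs, 51 (38.6%) spanned 20 kb or more, from 20.2 to 57.4 kb, with a median of 91.5% of bases in members. Their 258 members count as narrow because of the breaks between them. Neither replicate list joined any of these 51 runs into a single cluster. Between neighbours that both replicates held there were 157 gaps of at most 2 kb, with a median of 694 bases, and 156 of them were spanned by no cluster of either replicate. The combined list takes in nearly all replicate clusters, so a gap in it can seldom be spanned by them.

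The longest runs had 9 members, and there were 4 of them. The widest of these, 3L:17554774-17612182, spanned 57.4 kb with 91.1% of its bases in members. Both replicates held 8 of its 9 members, and each list covered a similar part of it, 82.8% in replicate 1 and 83.3% in replicate 2. Its gaps ran from 266 to 1594 bases. Its highest-scoring member, of 12611 bases, scored 1.30 in the combined list, 1.38 in replicate 1 and 1.26 in replicate 2.

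The next runs were patchier in the replicates. The run 3L:7161696-7217907 spanned 56.2 kb, and both replicates held 5 of its 9 members. Replicate 1 covered 76.7% of it with 11 clusters and replicate 2 covered 49.8% with 7. In 3L:15213913-15260595, which spanned 46.7 kb, both replicates held 4 of the 9 members, with 36.8% covered in replicate 1 and 43.8% in replicate 2. Its widest member, of 14878 bases, matched 1 cluster of 7710 bases in replicate 1 and 4 clusters in replicate 2, the best of them 4849 bases wide. The fourth run of 9, 3L:8645721-8685194, spanned 39.5 kb, and both replicates held 5 of its members.

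The share in both replicate lists was somewhat larger for members in runs than for others. Both replicates touched 46.3% of the 557 members in runs (Wilson 95% interval 42.2 to 50.5) and 40.6% of the 817 outside them (37.3 to 44.0). Members in runs were also wider, with a median of 2652 bases against 2021. The order was not the same in each class of width. At 3 to 5 kb both replicates touched 69.1% of the 110 members in runs and 78.9% of the 128 outside. At 5 to 10 kb the shares were 94.8% and 97.9%. Only at 2 to 3 kb was the share in runs the larger, 50.6% against 49.6%. In the narrowest and the widest class the shares in runs and outside were equal. Such intervals hold only the counting error over clusters.

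Both replicate lists held 590 of the 1374 members, or 42.9% (Wilson 95% interval 40.3 to 45.6), counting a member as held where at least 1 base was shared. Over all 7220 combined clusters under 20 kb in the genome the share was 40.9%, so the share on 3L was near the background. Replicate 1 alone held 150 members, replicate 2 alone held 146 and neither held 488 (35.5%). In bases the members held by both weighed more, with 73.1% of the 5.18 Mb, against 13.6% for those in neither. Each replicate held a similar part of the bases of the members, 64.7% in replicate 1 and 62.4% in replicate 2.

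Width separated the held members from the others. None of the 256 members narrower than 1301 bases was in both lists, and 245 of them were in neither. Of the 370 members from 1301 bases to under 2 kb, both replicates held 16 (4.32%). The share then rose to 50.0% at 2 to 3 kb, 74.4% at 3 to 5 kb, 96.4% at 5 to 10 kb and 104 of 104 at 10 to 20 kb. A list without clusters under 1301 bases can hold such a member only with a cluster that reaches past its end, so the lowest class was low by construction. Both replicates held 52.8% of the members of at least that width.

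**Figure D2:**
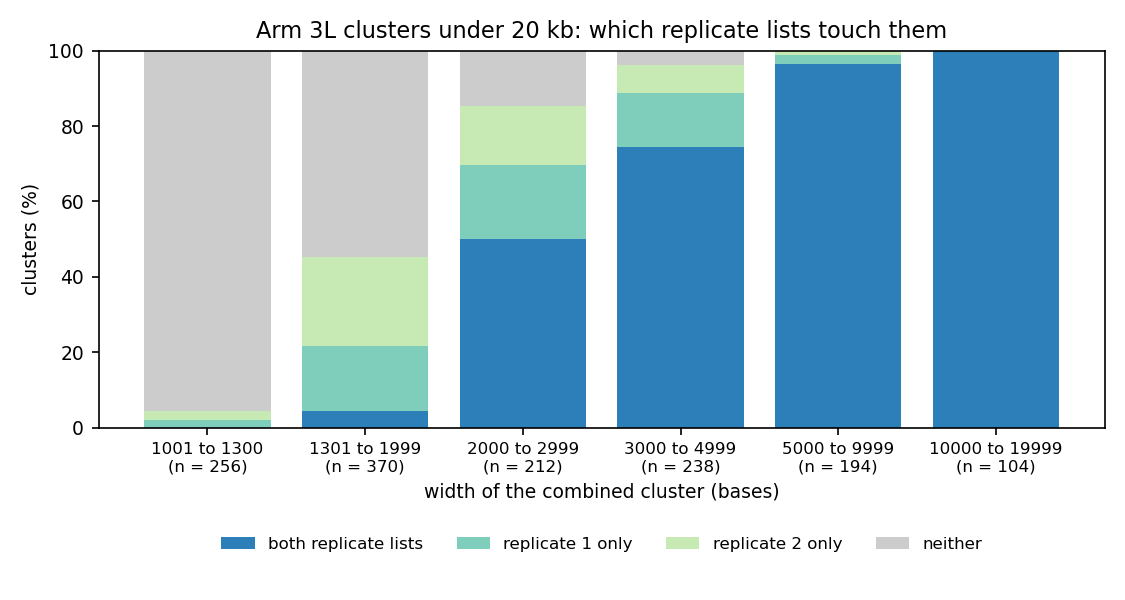
Percentage of members (vertical) touched by both replicate lists, by a single list or by neither, for 6 classes of width in bases (horizontal, with the number of members). The share in both rises from 0 of 256 in the narrowest class to 104 of 104 in the widest.

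Score separated them as well, also among members of like width. In 4 equal groups by rising score, both replicates held 2.91%, 17.8%, 53.4% and 97.7% of the members. At 3 to 5 kb they held 59 of the 119 members at or below the median score of the class and 118 of the 119 above it. At 2 to 3 kb the counts were 30 of 106 and 76 of 106. From 1301 bases to under 2 kb score made little difference, with 7 of 185 against 9 of 185. The combined score draws on the same reads as the replicate lists, so these shares show how the lists nest.

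Members in neither list were found both beside held clusters and far from them. The median distance to the nearest cluster in both lists was 6370.5 bases, with 129 of the 488 (26.4%) within 2 kb and 105 (21.5%) beyond 20 kb. For members that both replicates held, the distance to the next such cluster was 1983 bases in the median, with 50.2% within 2 kb. The widest members in neither list were 3L:15900874-15904953 (4080 bases, score 0.364), 3L:8774068-8778012 (3945 bases, 0.374) and 3L:9573567-9577425 (3859 bases, 0.386). All of these stood in runs, of 4, 3 and 6 members.

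Where both replicates held a member, they covered most of it, in fewer bases than the combined list. The median share of a held member covered was 83.1% in replicate 1 and 82.5% in replicate 2. In each of the lists at least 50% was covered for 484 of the 590 members. One cluster of each replicate answered to 420 of the 590, and 170 were cut into several pieces in at least 1 replicate, up to 5 in replicate 1 and 6 in replicate 2.

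Among the 414 members that matched a single cluster in each replicate and the reverse, the ends of replicate clusters lay inside those of the combined cluster. Starts lay 193.5 bases further in for replicate 1 and 206.5 bases for replicate 2 in the median, and the median offset of ends was -199 and -178.5 bases. Replicate clusters were narrower than the member in 96.6% and 96.4% of cases. Between the replicates, starts differed by 211.5 bases and ends by 187.5 bases in the median, and for 1 in 10 members starts differed by more than 1290 bases. Replicate scores ranked these members alike, with a Spearman correlation of 0.804 over the 414, as did replicate widths with 0.826. The points share a caller and were selected for overlap.

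The 10 widest members in both lists, from 19271 to 19965 bases, fell into whole and broken ones. Clusters such as 3L:10634290-10653927 (19638 bases, score 1.09) and 3L:2566420-2585955 (19536 bases, score 1.37) were single clusters of nearly the same width in each replicate, with 19540 and 19440 bases for the first and 19287 and 18693 bases for the other. The cluster 3L:21213719-21233114 (19396 bases, score 1.06) was likewise whole, as were 3L:8820977-8840788 and 3L:5158133-5177632. Others were whole in replicate 2 only, namely 3L:3767817-3787471 (19655 bases), in 2 pieces in replicate 1, and 3L:1003194-1022762 (19569 bases), in 3 pieces.

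The broken ones had lower scores. The cluster 3L:6424488-6444330 appeared as 2 pieces in replicate 1 and 3 in replicate 2, with a combined score of 0.754. The cluster 3L:14441962-14461232 (19271 bases, score 0.557) appeared as 5 and 4 pieces. The widest, 3L:12083897-12103861 (score 0.434), appeared as 5 pieces covering 34.2% of it in replicate 1 and as 6 pieces covering 71.3% in replicate 2. The whole ones among the 10 scored 1.06 or more.

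The stretches at 0 to 1 Mb and 10 to 12 Mb stand out on 3L for the bases that clusters of any width covered, 55.7% there against 34.2% in the rest of the arm. The narrow clusters had no part in that excess. Members were fewer per Mb in the stretches, 48.3 against 66.4, a ratio of 0.728. They covered 19.7% of the stretches and 24.8% of the rest. The wide clusters covered 36.03% against 9.38%, with 23 of the 72 in these 3 Mb. The stretches were named with results of these data known, so the excess in cover is a description.

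The replicate lists gave the same order. In the stretches each replicate listed 113 narrow clusters of its own, or 37.7 per Mb, against 48.2 and 48.9 per Mb in the rest. Their cover was 18.7% and 18.3% in the stretches and 19.3% and 18.8% in the rest, so in the replicates the cover by narrow clusters differed by under 1 percentage point. Cover by wide clusters was 30.0% ± 0.153 against 5.46% ± 0.208 (SD, n = 2).

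With only the bases outside wide clusters counted, the stretches went opposite ways in the combined list. There were 56.7 members per Mb at 0 to 1 Mb, 85.2 at 10 to 12 Mb and 73.3 in the rest. Pooled, the stretches had 75.6 per Mb, a ratio to the rest of 1.03. The replicates did not show this split. They had 53.0 ± 0.979 per Mb at 0 to 1 Mb, 54.2 ± 0.676 at 10 to 12 Mb and 51.3 ± 0.453 in the rest (SD, n = 2). In each replicate both stretches lay somewhat above the rest, and the pooled density was 53.8 ± 0.118 per Mb (SD, n = 2). Members covered 30.8% of the remaining bases in the stretches and 27.4% in the rest, against 26.4% ± 0.446 and 20.1% ± 0.439 (SD, n = 2) in the replicates.

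**Figure D3:**
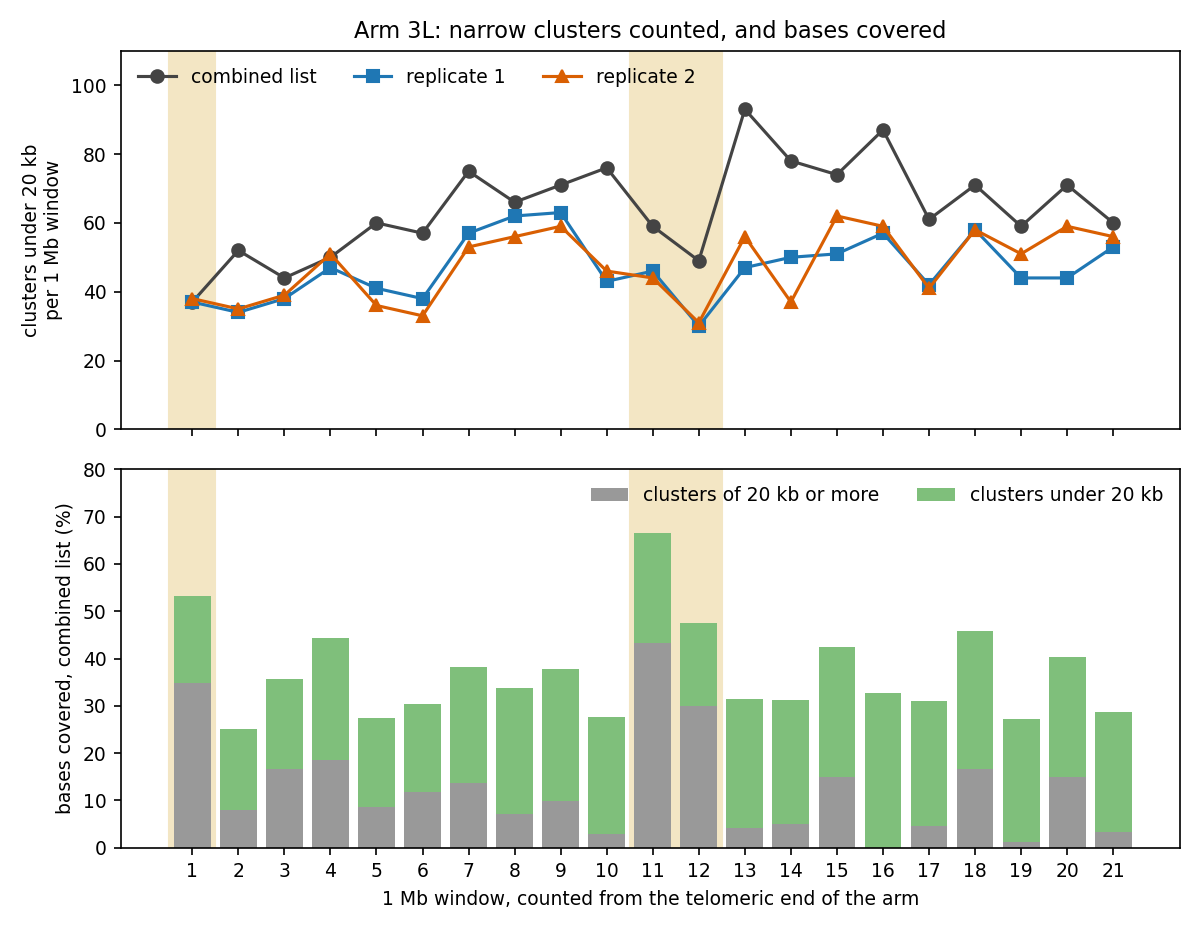
Upper panel, clusters under 20 kb per 1 Mb window (vertical) in the combined list and each replicate, over the 21 full windows of 3L counted from the telomeric end (horizontal). Lower panel, percentage of bases covered in the combined list by clusters of 20 kb or more and by narrower ones. The stretches at 0 to 1 and 10 to 12 Mb are shaded. In the combined list window 1 has 37 narrow clusters, the fewest of the 21, and window 11 has 43.4% of its bases in wide clusters.

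The members of the 2 stretches were unlike each other. At 0 to 1 Mb they were few, wide and in both lists: 37 members with a median width of 3779 bases, a median score of 0.563 and 25 (67.6%, Wilson 95% interval 51.5 to 80.4) held by both replicates. At 10 to 12 Mb there were 108 members with a median width of 1936.5 bases, a median score of 0.416 and 36 (33.3%, 25.2 to 42.7) held by both. The rest of the arm lay between them, with 43.0% of its 1229 members held by both (40.3 to 45.8) and medians of 2166 bases and 0.424. Width moved with the share held, since 56.8% of the members at 0 to 1 Mb were 3 kb or wider, against 31.5% at 10 to 12 Mb and 39.1% elsewhere. Its part in the difference was not tested. Pooled, the stretches came to 42.1%, a difference from the rest of -0.974 percentage points with a 95% interval from -9.19 to 7.61. These intervals hold only the counting error over clusters, which are not independent, and no spread between samples. The stretches were also named with results known, so the intervals test no difference.

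The median width was also higher at 0 to 1 Mb than at 10 to 12 Mb in each replicate list. Median widths in replicates 1 and 2 came to 4238 and 3838.5 bases at 0 to 1 Mb, against 2220 and 2542 bases at 10 to 12 Mb. In the rest it was 2627 and 2436 bases, above the value at 10 to 12 Mb in replicate 1 and below it in replicate 2. Median scores there were 0.788 and 0.723 at 0 to 1 Mb, against 0.634 and 0.647 at 10 to 12 Mb, and 0.643 and 0.603 in the rest. In both lists the first 1 Mb thus had the highest median width and score of the parts compared. In the combined list window 1 ranked 1 of 21 full windows for median score and for the share held by both, and 21 of 21 for the number of members. In the replicates the number in window 1 was low too, 37 and 38 against 48.2 and 48.9 per Mb in the rest. It was not the lowest of the windows there. Narrow clusters per Mb at 0 to 1 Mb and at 10 to 12 Mb were 37 and 38 in replicate 1, and 38 and 37.5 in replicate 2. The window at 11 to 12 Mb had fewer than window 1 in both, 30 in replicate 1 and 31 in replicate 2.

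Spacing separated the stretches in the combined list more than in the replicates. At 10 to 12 Mb the median gap was 1966.5 bases, and 12 of 98 gaps (12.2%) were under 100 bases, against 4.47% of 1185 gaps in the rest of the arm. In replicate 1 such gaps were 7.35% of 68 at 10 to 12 Mb and 3.94% of 863 in the rest. In replicate 2 they were 1.54% of 65 and 3.64% of 878, so the replicates differed in the order. The median gap at 10 to 12 Mb was 3716.5 bases in replicate 1 and 2693 in replicate 2, against 3317 and 3542.5 in the rest, so its order differed too. At 0 to 1 Mb the median gap was 3350 bases in the combined list, and none of 33 gaps was under 100 bases. In the replicates such gaps were 2.86% of 35 and 5.56% of 36 there, and the median gap was 4007 and 3010.5 bases. Runs took in 44.4% of the members at 10 to 12 Mb, 29.7% at 0 to 1 Mb and 40.5% in the rest. In the replicates runs were scarcer at 10 to 12 Mb than in the rest, with 19 of 76 clusters against 35.8% in replicate 1 and 17 of 75 against 33.6% in replicate 2. The share in runs at 10 to 12 Mb relative to the rest therefore had the opposite order in the combined list and in the replicates.

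**Figure D4:**
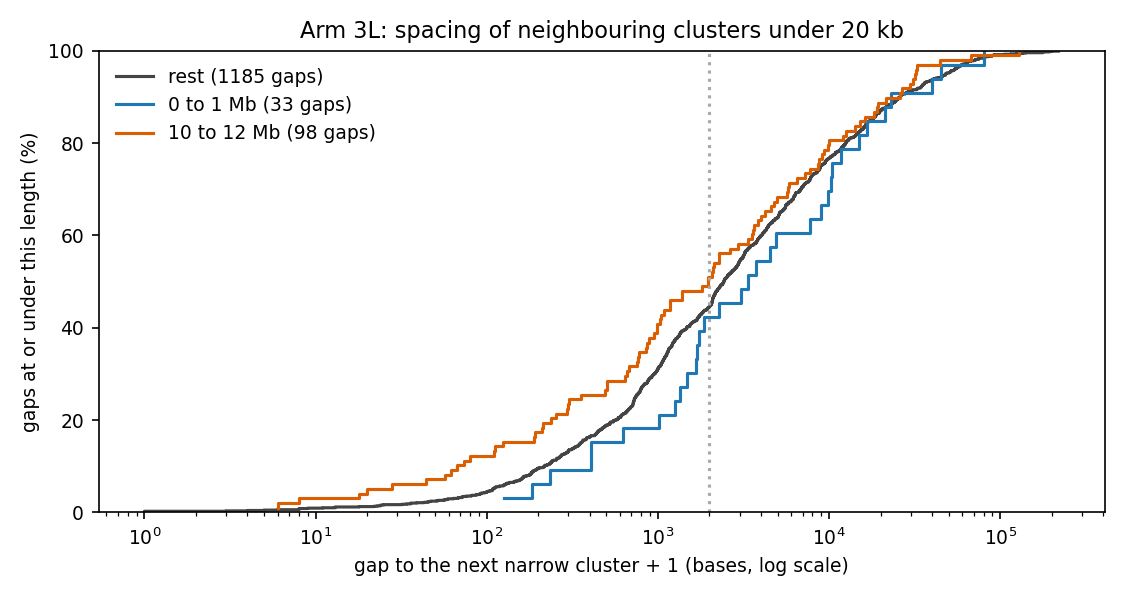
Cumulative percentage of gaps (vertical) at or under a given length in bases plus 1 (horizontal, log scale) between neighbouring members at 0 to 1 Mb, at 10 to 12 Mb and in the rest of the arm, with a dotted line at 2 kb. The curve for 10 to 12 Mb lies highest under 1 kb, with 12.2% of its gaps under 100 bases, and that for 0 to 1 Mb lies lowest there.

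The 10 to 12 Mb stretch was itself uneven. The window at 10 to 11 Mb had 59 members, with 43.4% of its bases in wide clusters. Per Mb of remaining bases it had the most of the 21 full windows, 104.2. The window at 11 to 12 Mb had 49 members and 69.9 per Mb of remaining bases. The window just past the stretch, at 12 to 13 Mb, had the most members of all, 93, with 4.22% in wide clusters. Of those 93, both replicates held 26 (28.0%), the lowest share of the 21 windows, and the replicates listed 47 and 56 narrow clusters there.

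Away from the stretches, narrow clusters were more frequent in the centromere-ward part of the arm. The 9 windows from 12 to 21 Mb had 72.7 members each on average (59 to 93), and the 9 windows from 1 to 10 Mb had 61.2 (44 to 76). The order was the same in the replicates, at 49.6 against 47.0 in replicate 1 and 53.2 against 45.3 in replicate 2. As a count the difference was smaller there, least in replicate 1, but the replicate lists also hold fewer clusters. The window at 15 to 16 Mb had no base in a wide cluster in any list and yet 87 members, which covered 32.8% of it in the combined list, 19.0% in replicate 1 and 19.9% in replicate 2.

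Set beside arms 2L, 3R and X, the narrow clusters of 3L lay within the range of the others in number per Mb, score and share held, and had the lowest median width and gap. For this the same distance from the centromeric end, 3.04 Mb, was left out of each arm, and 2R was not compared. Members per Mb were 63.9 on 3L, 57.4 on 2L, 57.6 on 3R and 72.1 on X. The median width was 2139.5 bases on 3L and from 2153.5 to 2299 bases on the others. The median gap was 2398 bases against 2528 on 2L, 2879 on 3R and 2532 on X, and both replicates held 42.9% against 43.9%, 40.6% and 37.5%. The median score of 0.424 lay beside 0.428 on 2L and 0.420 on 3R and under the 0.540 of X. With so few arms no test was made between them.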

How the data were processed

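ChIP-seq for H3K36me1 was done on adult fly heads. The titles of the 2 ChIP and 2 input samples name head nuclei and give group and replicate number. The submitters' processing notes name Bowtie 0.12.7. Positions follow FlyBase release 5, per the file headers, and count from 1. The authors deposited a score for each enriched cluster in 3 lists, for each ChIP replicate and for the set of them; the sources used here give no definition of it, no caller or threshold and no way of combining. Scores were compared as ranks and differences within a list.

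Positions were compared with pandas 2.3.3 and numpy 2.4.6 under Python 3.11.15. Wilson intervals came from scipy 1.17.1 and figures from matplotlib 3.10.9. Each replicate list was put under the same width and position limits. A cluster belongs to a stretch or window by its start, and bases are counted where they lie. Gaps run between neighbouring members without a wider cluster between them. The code was tested on simulated lists with planted runs and overlaps. No annotation or genome of release 5 was used, so no gene or sequence is given.

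Named regions are the 10 widest members in both lists, the 5 highest scores, the 3 longest runs, the 3 clusters on each side of the width limit, the 3 widest members in neither list and the 3 longest gaps. The fourth run of 9 and the other regions and windows named were chosen after their values were seen. Members, stretches and lists were chosen with earlier results of these data known. Alternatives changed the width limit, score, overlap, gap limit, stretches and lists.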

Additional observations from a re-analysis of the deposited data

How the results depend on the processing

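Of 63 alternatives, 16 moved a value by less than the spread between the replicate lists (1 SD) or the 95% interval over clusters, and 47 moved it further. Differences and ratios changed side under 13 of them: 5 for the share held by both in the stretches minus the rest, 7 for the median score and 1 for density, where the first 2 values lay near 0 in the combined list. The density of members in the dense stretches relative to the rest (0.728) turned to 1.03 outside wide clusters, where the denominator leaves out the bases that wide clusters take. It was 0.557 at 0 to 1 Mb and 0.813 at 10 to 12 Mb alone, 0.715 for members under 10 kb, 0.752 under 30 kb, 0.711 for those above the median score, 0.769 for those of at least 1301 bases and 0.770 to 0.782 with a single replicate. The share held by both (42.9%) was 38.3% under 10 kb, 75.5% above the median score, 52.8% with at least 1301 bases, 35.2% where each replicate covered at least 50% of the member, 29.9% with reciprocal overlap of 50%, and 53.6% to 53.9% with a single replicate, higher by construction. The difference in that share between the stretches and the rest was 24.5 points at 0 to 1 Mb and -9.71 at 10 to 12 Mb. The median gap of 2398 bases became 6408 above the median score, 3292 with at least 1301 bases and 3359 to 3458 in single replicate lists, all with fewer clusters. The share in runs (40.5%) was 35.98% under 10 kb, 42.4% under 30 kb, 20.1% above the median score, 32.0% with at least 1301 bases, 25.2% and 66.7% with gap limits of 1 and 5 kb, 64.8% with pairs counted, 42.4% with wide clusters as links and 32.5% to 34.8% in single lists. The ratio of cover by all clusters (1.63) was 1.82 above the median score, 1.56 at 0 to 1 Mb, 1.67 at 10 to 12 Mb and 1.96 to 2.00 in single lists. The difference in median score (-0.00091) was 0.0433 above the median score, 0.139 at 0 to 1 Mb and 0.0319 to 0.0635 in single lists. The correlation of width and score (0.684) was 0.617 under 10 kb, 0.704 under 30 kb, 0.666 above the median score, 0.798 with at least 1301 bases and 0.786 to 0.797 in single lists. Where not stated, the cause was not tested. No paired analysis was possible because no test was made: only the ChIP samples have a cluster list, and they form 1 group. Depth is unknown.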

Other observations

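The narrow, high-scoring member at 15.4 Mb had counterparts elsewhere in the combined list, a comparison made after its value was seen. Of the 1386 combined clusters narrower than 1301 bases, 17 scored above 1, of which 1 lay on 3L. Arm 2R had 5, X had 4, 2L and 3R had 2 each, and 2LHet, 2RHet and U had 1 each. The highest scores of the whole list were 3.21, for a cluster of 1013 bases on 2R and one of 1066 bases on U. A cluster of 1059 bases on 3R scored 2.42. These lay above the highest score of any cluster on 3L, the 1.98 of 3L:749080-826759, which is 77680 bases wide. What set these scores was not tested.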
